A study of Mus musculus with 4 samples.

Results

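The Ifit family was examined in mouse aortic endothelial cells (the line mAEC) after exposure to the supernatant of TNFα+CD68+ macrophages. Its 6 genes, Ifit1, Ifit1bl1, Ifit1bl2, Ifit2, Ifit3 and Ifit3b, were taken by symbol and were 6 of the 27179 genes of the count table; every one had a row. Total RNA was sequenced from 2 conditioned medium libraries (the supernatant) and 2 control libraries (normal medium), which the design text describes as biological replicates. The cells are 1 line, while the time, dilution and base medium of the exposure were not stated in the labels. No supernatant of other macrophages was among the groups, so an effect of TNFα+CD68+ macrophages and an effect of any conditioned medium cannot be told apart.

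IFIT proteins are built from tetratricopeptide repeats and are nearly absent from many resting cells until type I interferon, or sensing of viral RNA, switches their genes on. Interferon binds its receptor and activates the transcription factor complex ISGF3, which binds interferon-stimulated response elements (ISREs) in target promoters. IFIT1 recognises RNA whose cap lacks ribose methylation, a mark that sets host messages apart from some viral ones, and mouse Ifit1 and Ifit2 can bind the translation initiation factor eIF3. In humans IFIT3 binds IFIT1 and stabilises it. The genes lie side by side, which reflects copying within the cluster, and 2 of the mouse genes, Ifit3 and Ifit3b, are near-identical copies.

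All 6 genes lie on chromosome 19 in GRCm38.p6 (the build of mm10), as annotated by RefSeq. From one end of the cluster to the other, Ifit2 (Entrez 15958) spans chr19:34550550-34576534, and Ifit3 (15959) spans chr19:34583119-34588982. Ifit1bl1 (667373) is annotated at chr19:34592888-34662981, a span that crosses its neighbours although its exons overlap none of theirs. Ifit3b (667370) lies at chr19:34607530-34613403 and Ifit1bl2 (112419) at chr19:34617046-34640827. Ifit1 (15957) lies at chr19:34640889-34650009.

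The promoter letters come first because they hold what 5 of the 6 genes share. The windows of RefSeq for GRCm38.p6 run 250 bases before to 50 bases after each start that they list. Such a start need not be the end of the gene span given above. In these windows, the ISRE core was searched as GAAANNGAAA on either strand (TTTCNNTTTC when read on the other). The stretch around each match is printed 5′ to 3′ on the strand of its gene, with the matches in capitals.
Ifit3: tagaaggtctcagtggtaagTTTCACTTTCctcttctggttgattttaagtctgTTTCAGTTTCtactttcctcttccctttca
Ifit3b: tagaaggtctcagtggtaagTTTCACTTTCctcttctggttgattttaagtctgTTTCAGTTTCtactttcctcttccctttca
Ifit1: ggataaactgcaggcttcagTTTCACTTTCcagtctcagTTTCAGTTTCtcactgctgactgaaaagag
Ifit1bl2: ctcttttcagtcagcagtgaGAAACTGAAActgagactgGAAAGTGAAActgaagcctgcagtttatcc
Ifit1bl1, upstream start: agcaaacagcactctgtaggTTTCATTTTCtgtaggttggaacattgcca
Ifit1bl1, downstream start: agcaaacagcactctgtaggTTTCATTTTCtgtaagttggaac
The Ifit3 stretch lies at chr19:34583353-34583436 on the plus strand, with its matches 156 and 122 bases before the start. The Ifit3b stretch, at chr19:34607749-34607832, has the same 84 letters, with matches 188 and 154 bases before its start. Both stretches lie inside the gene spans given above, since the windows use starts within those spans. Ifit1 (plus strand) and Ifit1bl2 (minus strand) share the stretch at chr19:34640765-34640833. The starts that their windows use lie 146 bases apart and point away from each other. The Ifit1bl2 span given above ends at 34640827, inside this stretch, so its window uses a start within that span. The matches lie 104 and 85 bases before the Ifit1 start, and 70 and 51 bases before the Ifit1bl2 start. Ifit1bl1, on the minus strand, has 2 starts with a window and a match each, and both starts lie within its span. The stretch at chr19:34602043-34602092 has its match 104 bases before the upstream start, and that at chr19:34599428-34599470 has its match 23 bases before the downstream one. A further window of Ifit1bl2, at another annotated start, held no match. The windows of Ifit2 held no match, which says only that these letters are not in those windows. No Ifit2 window was anchored at the start of its span, but the window at chr19:34550444-34550743 covers that start and some bases before it. Over all 32851 promoter windows, 3.44% held the core.

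The coding sequences show how hard Ifit3 and Ifit3b are to tell apart. They match at 1198 of 1209 bases (99.1%), and the 90-base stretch with the most differences, coding bases 199 to 288 counted from the start codon, is printed with the 4 differing bases in capitals.
Ifit3: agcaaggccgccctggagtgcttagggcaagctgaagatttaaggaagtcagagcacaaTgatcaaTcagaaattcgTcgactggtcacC
Ifit3b: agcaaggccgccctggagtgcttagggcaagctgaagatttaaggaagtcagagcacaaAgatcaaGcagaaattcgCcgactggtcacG
A read of 50 bases could not be placed uniquely at 51.2% of the positions of the Ifit3 transcripts and 44.5% of those of Ifit3b, counting matches between the pair. With reads of 100 bases the shares were 31.7% and 27.4%. Neither the read length nor the handling of reads that fit several genes was stated in the labels, so the separate counts of this pair are uncertain. Ifit1bl1 and Ifit1bl2 matched each other at 87.5% of aligned coding bases, while Ifit2 matched no other member at more than 53.8% and shared no 50-base stretch with any gene.

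The libraries held 13815695 and 18005840 counts in conditioned medium and 14966911 and 14493674 counts in control. A gene with 3 counts was at 0.167 to 0.217 CPM (counts scaled to library size), and these floors and the intervals given later cover counting error only. Of 13897 genes tested with edgeR, 2330 (16.8%) were called at an adjusted p of at most 0.05, and 1144 (8.23%) were called lower in conditioned medium. The endothelial identity of the line was visible: Pecam1 averaged 2415 CPM in conditioned medium and 2414 CPM in control. Cdh5 averaged 1999 CPM and 1908 CPM in those groups. By contrast, Vwf averaged only 2.88 CPM and 2.90 CPM in those groups, and Cldn5 was at or near 0 in every library. Of 12 endothelial markers, 11 were tested, and 2 were called lower (Kdr, -0.16, and Emcn, -0.13 on the log2 scale) and 2 higher (Egfl7, 0.21, and Eng, 0.32). The list summed to 7250 and 7179 CPM in conditioned medium, against 7102 and 7113 CPM in control. Of 12 macrophage markers, 5 (Adgre1, C1qa, C1qb, Tyrobp and Mrc1) had no count in any library. The list summed to 253 and 260 CPM in conditioned medium and 230 and 260 CPM in control, nearly all of it Cd68, which averaged 244.8 CPM in conditioned medium and 234.0 CPM in control. Of 6 fibroblast markers, 2 were tested and Pdgfra was called higher, and the list summed to 34.0 and 34.2 CPM in conditioned medium and 27.7 and 29.8 CPM in control. The 8 smooth muscle and pericyte markers summed to 11.2 and 12.4 CPM in conditioned medium and 10.6 and 11.0 CPM in control, and the 5 epithelial markers stayed under 1 CPM in every library. The part of these marker differences in the results on the Ifit genes was not tested.

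The main members of the Ifit family fell in conditioned medium. Of the 5 members with enough counts to test, 4 (Ifit3, Ifit3b, Ifit1 and Ifit2) were called lower, beside 8.23% of all tested genes called lower and 8.53% called higher. All 5 tested members had both conditioned medium libraries below both controls, beside 28.8% of all tested genes that did so and 57.2% whose groups did not overlap in either direction. Their means in conditioned medium were 46.1% (Ifit3), 53.0% (Ifit3b), 55.7% (Ifit1) and 74.3% (Ifit2) of those in control. Ifit1bl2 did not pass the test, and Ifit1bl1 was too low to test. The 6 members together summed to 113 and 116 CPM in conditioned medium and 175 and 193 CPM in control, a log2 ratio of -0.69. An exact two-sided permutation test of that sum gave p = 0.333, the smallest that 2 against 2 libraries allow. RNA was measured in bulk, so fewer cells expressing a gene and less RNA per cell cannot be told apart.

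**Figure D1:**
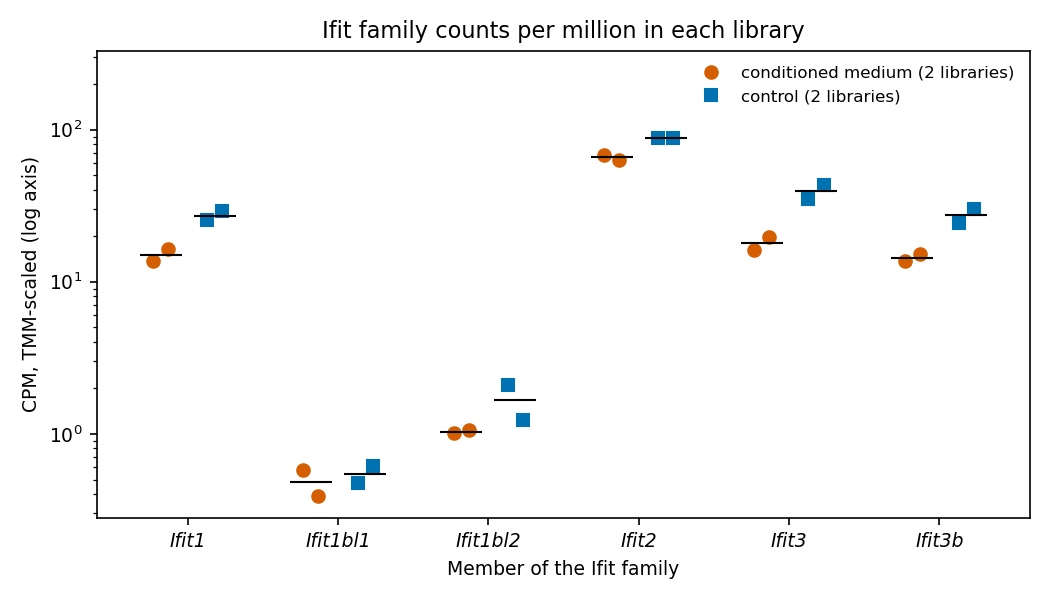
TMM-scaled CPM on a log axis for the 6 members, with 1 point per library (circles, conditioned medium; squares, control) and a line at each group mean. Ifit3, Ifit3b, Ifit1 and Ifit2 have both conditioned medium libraries below both controls, as does Ifit1bl2 at about 1 CPM, while the Ifit1bl1 groups overlap.

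Ifit3, whose human counterpart binds IFIT1, changed most. It had 223 and 356 counts in conditioned medium, against 516 and 635 in control, which came to 16.1 and 19.7 CPM against 34.9 and 43.5 CPM. The groups did not overlap, and the gap between them was wider than the spread within either. Ifit3 averaged 17.9 ± 2.57 CPM in conditioned medium and 39.2 ± 6.02 CPM in control (SD, n = 2 each). The log2 fold change was -1.12 ± 0.11 (SE), 2.17-fold lower, with an adjusted p of 3.37e-07 (edgeR's quasi-likelihood test, Benjamini-Hochberg over all genes tested). Only 27 of the 13897 tested genes had a fold change as low or lower.

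Ifit3b, the near-identical copy downstream of Ifit3, followed. Its libraries stood at 13.7 and 15.1 CPM in conditioned medium and at 24.4 and 30.2 CPM in control, again without overlap. The log2 fold change was -0.92 ± 0.11, 1.89-fold lower (edgeR adjusted p = 5.49e-06). Because reads can be swapped between the copies, the pair was also counted as 1 gene, and the summed count was lower by a log2 fold change of -1.03 (adjusted p = 9.29e-08, edgeR).

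Ifit1, the sensor of incompletely methylated caps, had 13.6 and 16.4 CPM in conditioned medium, against 25.4 and 29.0 CPM in control. Its averages were 15.02 ± 1.96 CPM in conditioned medium and 27.2 ± 2.56 CPM in control (SD, n = 2 each). The groups were well apart, with a log2 fold change of -0.84 ± 0.10, 1.79-fold lower (edgeR adjusted p = 9.72e-06).

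Ifit2, which can bind eIF3 and is the most abundant member by counts, changed least of the 4. It stood at 68.2 and 63.0 CPM in conditioned medium and at 88.1 and 88.1 CPM in control. The controls nearly coincided, and the log2 fold change of -0.43 ± 0.06, 1.35-fold lower, passed the edgeR test (adjusted p = 1.73e-05). It ranked far behind Ifit3, since 431 tested genes had a fold change as low or lower.

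Ifit1bl2 and Ifit1bl1, copies related to Ifit1 whose roles are less well known, were barely expressed. Ifit1bl2 had 14 and 19 counts in conditioned medium and 31 and 18 in control, or 1.01 and 1.05 CPM against 2.10 and 1.23 CPM. The libraries did not overlap after scaling, but the log2 fold change of -0.69 ± 0.36 did not pass the test (edgeR adjusted p = 0.212). Without control replicate 1, its higher library, it was -0.25. Ifit1bl1 had 8 and 7 counts in conditioned medium and 7 and 9 in control, so its groups overlapped, and it stayed below the count filter.

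**Figure D2:**
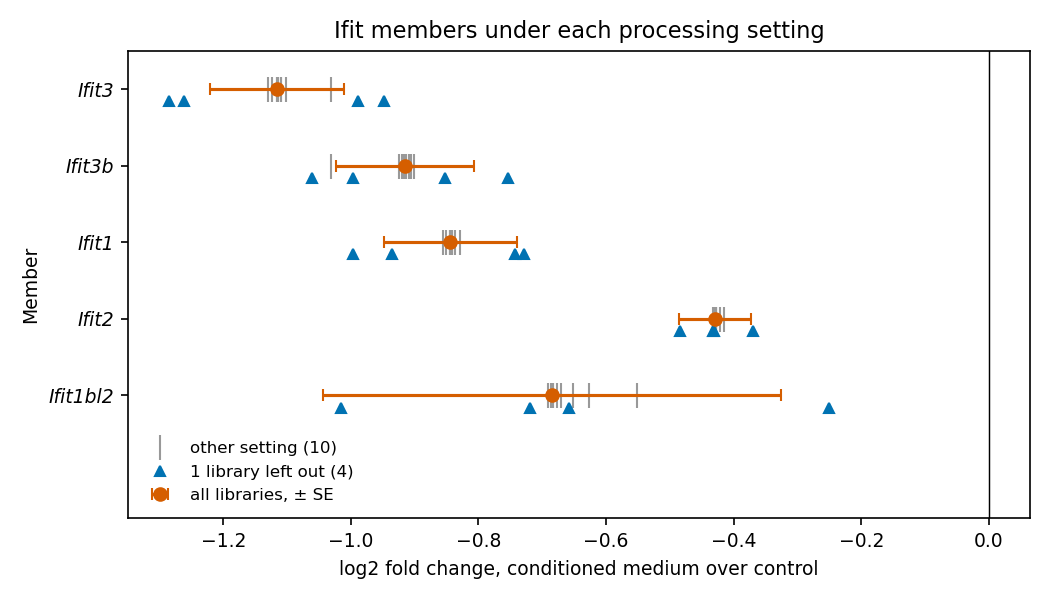
Log2 fold changes (conditioned medium over control) of the 5 tested members under each processing setting, with the value from all 4 libraries as a circle ± SE, 10 other settings as ticks and 4 leave-one-library-out values as triangles; a tick at -1.03 for Ifit3 and Ifit3b is their summed count. No value crosses 0, and only Ifit1bl2 comes near it, at -0.25.

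The spread across settings left the order of the family mostly in place. Over 14 alternatives, the log2 fold change ran between -1.28 and -0.95 for Ifit3, between -1.06 and -0.75 for Ifit3b, and between -0.996 and -0.73 for Ifit1. For Ifit2 it ran between -0.48 and -0.37. All 4 stayed called in every one of these alternatives, whereas the adjusted p of Ifit1bl2 was at least 0.0870 wherever the tool gave one.

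Levels can be compared between genes only per length, and on that scale the distance between Ifit2 and Ifit3 differed between the groups. On the RPKM scale (CPM divided by merged exon length in kilobases), Ifit2 had 17.4 and 16.03 in conditioned medium, and Ifit3 had 9.22 and 11.3. In control, Ifit2 had 22.4 and 22.4 RPKM, and Ifit3 had 20.03 and 24.9 RPKM. The levels of these 2 genes thus overlapped in control and did not overlap in conditioned medium. If reads that fit both Ifit3 and Ifit3b were dropped, Ifit3 is understated against Ifit2, which shares no 50-base stretch with any gene. The handling of such reads was not stated, so which of the 2 genes stood higher in conditioned medium is uncertain. Ifit3b averaged 7.21 ± 0.503 RPKM in conditioned medium and 13.7 ± 2.05 RPKM in control, and Ifit1 averaged 5.66 ± 0.737 RPKM and 10.2 ± 0.963 RPKM in those groups (SD, n = 2 each). Ifit1bl2 averaged 0.306 RPKM in conditioned medium and 0.495 RPKM in control, and Ifit1bl1 averaged 0.214 RPKM and 0.241 RPKM, so both stood far below the other 4. Among the 13897 tested genes, Ifit2 stood at the 78.7th percentile of expression, Ifit3 at the 54.9th, and Ifit1bl2 at the 6.43rd.

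The ratios between members also differed between the groups. Within a library, there were 0.236 and 0.313 counts of Ifit3 per count of Ifit2 in conditioned medium, against 0.397 and 0.493 in control. The ratio of Ifit1 to Ifit2 was 0.200 and 0.261 in conditioned medium and 0.288 and 0.329 in control, and that of Ifit3b to Ifit2 was 0.201 and 0.240 against 0.277 and 0.343. These ratios need no scaling between libraries, and none of them overlapped between the groups. In CPM, 57.2% of all tested genes did not overlap either, and the share over other pairs of genes was not computed. The ratios also share members, so they are not independent. Ifit2 made up 60.2% (95% Wilson interval 57.8 to 62.6) and 54.4% (52.3 to 56.6) of the family's counts in conditioned medium, and 50.2% (48.3 to 52.1) and 45.7% (43.9 to 47.6) in control. The ratio of Ifit3 to Ifit3b was 1.17 and 1.30 in conditioned medium and 1.43 and 1.44 in control. As a share of the pair, Ifit3 held 54.0% (49.2 to 58.7) and 56.6% (52.7 to 60.4) in conditioned medium, against 58.8% (55.5 to 62.0) and 59.0% (56.0 to 61.9) in control, and these intervals overlap. Each of the 5 ratios compared gave an exact two-sided permutation p of 0.333, raw and adjusted over the 5, which is the smallest this design allows.

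**Figure D3:**
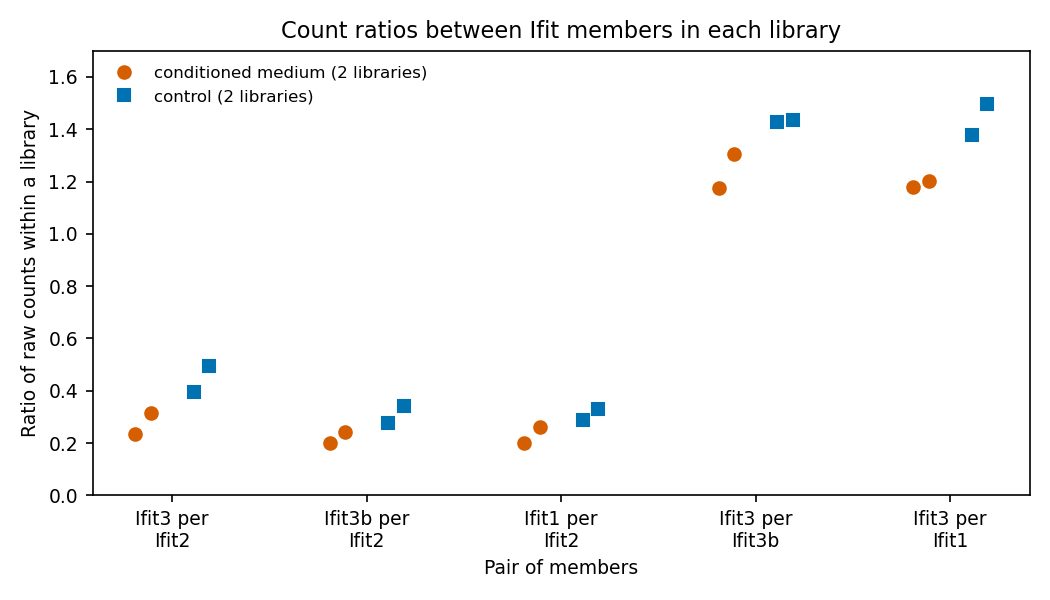
Ratios of raw counts between pairs of members within each library, with 1 point per library (circles, conditioned medium; squares, control) on an axis that starts at 0. In each of the 5 pairs both conditioned medium ratios lie below both control ratios, with 0.236 and 0.313 against 0.397 and 0.493 for Ifit3 per Ifit2. The pairs share members, so the 5 ratios are not independent.

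The genes around the cluster showed smaller values in both directions. Within 500 kb of it, 13 other genes had a row and 6 were tested. Fas, the death receptor gene, had 8.66 and 10.1 CPM in conditioned medium and 12.7 and 12.2 CPM in control (log2 fold change -0.40 ± 0.13, edgeR adjusted p = 0.0360). Kif20b, a mitotic kinesin, was lower by a smaller amount (-0.15 ± 0.05, edgeR adjusted p = 0.0462). Ch25h, a cholesterol hydroxylase that interferon also induces in macrophages, stood at 20.4 and 23.9 CPM in conditioned medium and 21.9 and 21.4 CPM in control (0.04 ± 0.10, edgeR adjusted p = 0.816). Lipa, the lysosomal acid lipase, had 0.11 ± 0.05 (edgeR adjusted p = 0.106), Stambpl1 had -0.22 ± 0.12 (0.240) and Pank1 had 0.33 ± 0.14 (0.121). The calls of Fas and Kif20b were lost with DESeq2 and when conditioned medium replicate 1, conditioned medium replicate 2 or control replicate 1 was left out. With DESeq2 the adjusted p of Fas was 0.285.

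**Figure D4:**
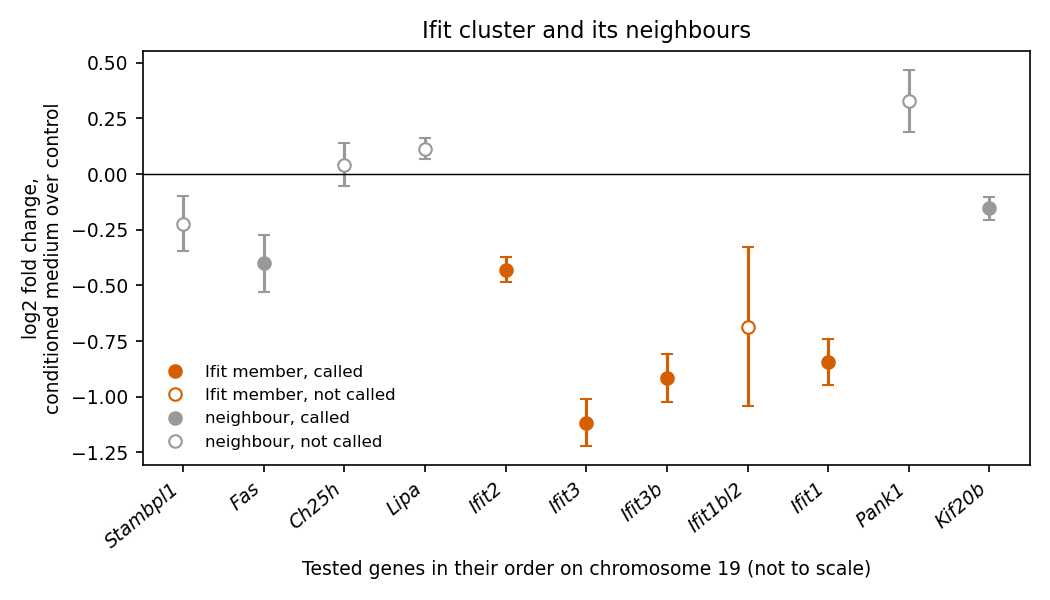
Log2 fold changes ± SE (conditioned medium over control) of the tested genes of the cluster and its neighbours in their order on chromosome 19, not to scale; filled points passed an adjusted p of 0.05. The 5 Ifit genes lie between -1.12 and -0.43, and the 6 neighbours between -0.40 and 0.33.

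Many of the other interferon-stimulated genes fell as well. Among the 13897 tested genes, 8.23% were called lower and 8.53% higher. Of 45 type I interferon-stimulated genes outside the family, 40 were tested, and 24 were called lower, 4 higher and 12 neither, with a median log2 fold change of -0.40. The median was -0.84 over the 5 tested Ifit genes and 0.00037 over all genes tested. Without conditioned medium replicate 2, the list had 13 genes called lower and 2 higher, and without conditioned medium replicate 1 it had 16 lower and 3 higher. DESeq2 also called 16 of the 40 lower and 3 higher, so that with this tool fewer were called lower than were not. Over all 13897 tested genes, DESeq2 called 445 lower and 473 higher, fewer than edgeR.

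Rsad2 (viperin), an antiviral enzyme, had 228 and 226 CPM in conditioned medium, against 387 and 438 CPM in control, which gave a log2 fold change of -0.86 ± 0.05 with an adjusted p of 8.26e-10 in edgeR. Its neighbour Cmpk2, a mitochondrial nucleotide kinase, had 19.98 and 21.8 CPM in conditioned medium and 34.9 and 42.2 CPM in control (-0.88 ± 0.09, edgeR adjusted p = 1.47e-06). Both lay close to Ifit1 and Ifit3b in size, while the other named genes of the list moved less. Irf7, the factor that amplifies interferon production, had -0.69 ± 0.09, the ADP-ribosyltransferase Parp14 had -0.61 ± 0.06, Oasl2 of the oligoadenylate synthetase family had -0.60 ± 0.08, and the RNA sensor Ifih1 had -0.56 ± 0.06. The 4 genes called higher were picked out after their values were seen. Ifitm2 and Ifitm3, membrane proteins that block viral entry, had 0.32 ± 0.05 (edgeR adjusted p = 8.47e-05) and 0.30 ± 0.04 (5.73e-05). Ifi27 had 0.32 ± 0.06 and the exonuclease Isg20 had 0.57 ± 0.16 (edgeR adjusted p = 6.92e-04 and 0.0199), but the call of Ifi27 was lost without conditioned medium replicate 2 (adjusted p = 0.125). That of Isg20 was lost with DESeq2 and without conditioned medium replicate 1, conditioned medium replicate 2 or control replicate 2. Isg15, also picked after its value was seen and often induced together with the IFIT genes, had -0.46 ± 0.19 and did not pass (edgeR adjusted p = 0.118).

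**Figure D5:**
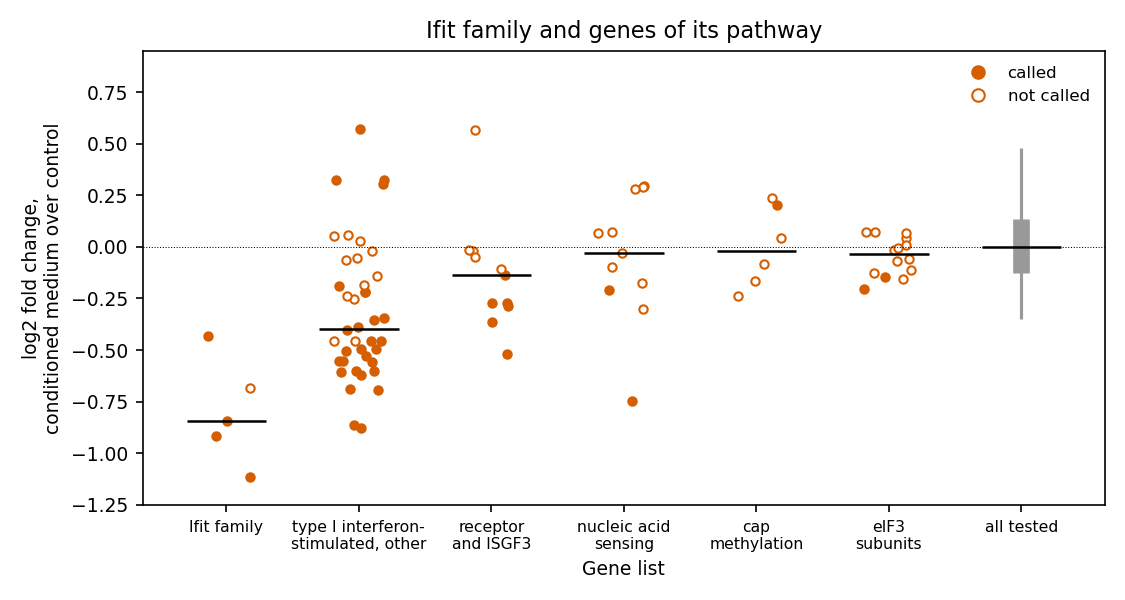
Log2 fold changes (conditioned medium over control) of the tested genes of the Ifit family and of 5 lists of its pathway, with filled points for genes called at an adjusted p of 0.05 and a line at each median. For all tested genes, the box spans the 25th to 75th percentile and the whisker the 5th to 95th (-0.35 to 0.48); the medians are -0.84 for the Ifit family and -0.40 for the other type I interferon-stimulated genes.

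Upstream of the family, of 13 genes of the interferons, their receptors and ISGF3, 11 were tested and 6 called lower (8.23% over all tested genes), with a median log2 fold change of -0.14. Ifnb1 and Ifng had no count in any library. Ifngr1, a chain of the interferon gamma receptor, had 33.8 and 35.6 CPM in conditioned medium and 49.6 and 49.9 CPM in control (-0.52 ± 0.07, edgeR adjusted p = 1.53e-05). Ifnar1, a chain of the type I receptor, had 131.7 and 123.6 CPM in conditioned medium and 167.1 and 160.4 CPM in control (-0.36 ± 0.05, edgeR adjusted p = 2.73e-05). Its partner Ifnar2 had -0.27 ± 0.06 (edgeR adjusted p = 0.00472). Of ISGF3, 2 genes were added after their values were seen, Irf9 at -0.27 ± 0.08 (edgeR adjusted p = 0.0170) and Stat2 at -0.11 ± 0.07 (0.283). The calls of Ifnar2 and Irf9 were each lost with DESeq2 and without conditioned medium replicate 1, and that of Irf9 also without conditioned medium replicate 2 or control replicate 2. The list had 2 genes called with DESeq2 and 2 without that library, and 3 without conditioned medium replicate 2.

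Among 11 tested genes of nucleic acid sensing, 2 were called lower and 1 higher, beside 8.23% lower and 8.53% higher over all tested genes. DESeq2 called 1 of the 11, beside 918 of all 13897 tested genes. Tlr3, the endosomal receptor of double-stranded RNA, had 15.8 and 14.6 CPM in conditioned medium, against 27.2 and 23.7 CPM in control (-0.75 ± 0.10, edgeR adjusted p = 2.42e-05). The RNA editor Adar had -0.21 ± 0.06 and the adaptor Sting1 had 0.30 ± 0.08 (edgeR adjusted p = 0.0240 and 0.0171). Both of these calls were lost with DESeq2 and without conditioned medium replicate 1 or 2, when Tlr3 was the single call. That of Adar was also lost without control replicate 2.

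The last lists hold the subunits of eIF3, which mouse Ifit1 and Ifit2 can bind, and genes of cap formation and methylation, named cap methylation here. Of 14 tested subunits of eIF3, 2 were called lower, Eif3c (-0.20 ± 0.04, edgeR adjusted p = 0.00288) and Eif3a (-0.15 ± 0.05, 0.0292), and the median was -0.04. The 2 calls among 14 are near the 16.8% called over all tested genes. Neither stayed called without conditioned medium replicate 1 or 2, and 5 subunits were called without control replicate 2. Of 6 genes of cap methylation, 1 was called, Pcif1 (0.20 ± 0.07, edgeR adjusted p = 0.0487), which lost its call whenever any library was left out. This count is at the share of 16.8% over all tested genes, and without control replicate 2 the list had 2 other genes called, both lower.

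Genes that carry an ISRE core in the promoter window were set beside all tested genes with a window, themselves included, as a description. Of 10142 tested genes with a window, 8.34% were called lower and 8.60% higher. Of the 378 with the core, 66 (17.5%) were called lower and 30 (7.94%) higher, with a median log2 fold change of -0.05. These 378 include Ifit1, Ifit1bl2, Ifit3 and Ifit3b and the 13 genes of the type I list with the core. The lower calls thus partly repeat those given above. For TTCNNNGAA, the core of the GAS (gamma-activated sequence) element, 72 of 851 genes (8.46%) were called lower and 79 (9.28%) higher. Within the type I list, 8 of 13 genes with the core and 10 of 16 without it were called lower. Ifit2, without the core in its windows, fell, and Ifit1bl2, with 2 matches but only 14 to 31 counts a library, did not pass the test. The part of the core in these changes was not tested.

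The library profile of the family, the mean over its 5 tested members of log2(CPM + 1) centred on each gene, was set against 10675 other genes by Euclidean distance over the 4 libraries. The nearest was Ifi211 (distance 0.0269), followed by Ccn2 (0.0684), 9930111J21Rik1 (0.0982), Slc43a2 (0.0995), Prelp (0.107), Mndal (0.115), C3 (0.115) and Ifi203 (0.119). The log2 fold changes of these 8 genes lay between -0.76 and -0.60. The distances of the members themselves from their own mean ran between 0.165 for Ifit1 and 0.514 for Ifit1bl2. They cannot be set against those of the 8 genes, which were picked as the nearest of 10675. The 1 added to CPM also flattens the profile of Ifit1bl2, which stood at about 1 CPM. All of these profiles rest on the same 4 libraries, so the ranking is a description.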

How the data were processed

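Per the labels, total RNA of mAEC cells was sequenced from TruSeq libraries, whose kit does not mark strand. The authors deposited raw counts per gene, named by Entrez identifiers. Tools listed in the submitters' processing notes are STAR 2.5.2b and featureCounts, with Subread 1.4.6-p1, on mm10; the settings are not stated there. Identifiers were matched to RefSeq (GRCm38.p6, the same build), which named 25275 of 27179 genes; the unnamed ones held 6.31% of counts and stayed in the tests. Members and gene lists were chosen with earlier results of these data known.

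Groups were compared with edgeR 4.0.16 (R 4.3.3; TMM scaling, filterByExpr with a minimum count of 10 and total of 15, quasi-likelihood F test, all 4 libraries, no covariate, Benjamini-Hochberg over 13897 genes, threshold 0.05). Counts were simulated for 13052 genes, leaving out those with low counts, and 100 genes were changed at each fold. The procedure recovered 78% of genes changed 1.5-fold and 100% of those changed 2-fold, and 5.32% of its calls were false. Each simulated gene had the spread fitted for its level, without further differences between genes. These shares may therefore not hold for the real counts. CPM used TMM-scaled library sizes; RPKM and shared stretches used exons of GENCODE M21. Coding sequences were compared, and no protein sequence was used here.

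Text names all members, the called genes with the smallest p of each list (6 for the type I list, 3 for others), all tested neighbours, and the 8 nearest profiles of at least 5 CPM. Markers and genes described as picked after their values were seen stand outside that rule. One list gene is not reported here. Alternatives changed the scaling (RLE, upper quartile, library totals alone), the count filter (none, or 1 CPM in 2 libraries) and the tool: robust fitting, DESeq2 1.42.0, voom in limma 3.58.1, summed copies, a replicate block and leaving out each library. Deviations of same-numbered libraries from their group means had a correlation of -0.03 over 11870 genes. This single value over many genes cannot decide whether same-numbered libraries shared a batch.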

Additional observations from a re-analysis of the deposited data

How the results depend on the processing

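The 4 called Ifit genes stayed called in all 14 alternatives, with the largest adjusted p at 5.87e-04 for Ifit3, 0.00404 for Ifit3b, 0.00308 for Ifit1 and 0.0160 for Ifit2. Ifit1bl2 had adjusted p between 0.0870 and 0.813, and its copy-summed value with Ifit1bl1 was -0.55. The values of the Ifit genes kept their sign. Ch25h, not called in any setting, turned to -0.09 without conditioned medium replicate 2, and the cap methylation calls turned to 2 lower without control replicate 2. The number of genes called, 2330, was 918 with DESeq2 and 569 to 3107 when a library was left out; genes called by 2-fold or more, 138, numbered 57 with DESeq2 and 63 to 141 without a library. Genes called on the receptor and ISGF3 list numbered 2 with DESeq2 and 2 to 7 without a library, on the sensing list 1 and 1 to 3, on the eIF3 list 1 and 0 to 5, and on the type I list 19 with DESeq2 and 15 to 32 without a library, with a median of -0.46 to -0.27. The cap methylation list had 0 calls with no count filter, with DESeq2 and with voom, 2 with the replicate block and with robust fitting, and 0 to 2 without a library. The neighbours had 1 call with upper-quartile scaling and with library totals alone, 0 with no filter and with DESeq2, and 0 to 2 without a library. The cause was not tested. With the replicate block, 2671 genes were called, 2319 of them shared with the 2330, and the Ifit values were -1.13 (Ifit3), -0.92 (Ifit3b), -0.86 (Ifit1), -0.43 (Ifit2) and -0.65 (Ifit1bl2, adjusted p 0.202). With 2 libraries a group, precision is limited, and leaving 1 out assumes that the lone library varies like the other group.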
